A study of Mus musculus with 9 samples.

Results

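The cytosolic ribosomal proteins are the protein components of the ribosomes that translate nuclear mRNAs, and their genes were followed here in mouse liver. Members were chosen by symbol, not by their values. Among the 54007 rows of the deposited table, 101 carried a protein-coding Ensembl identifier whose symbol begins with Rpl or Rps and a digit, or is Rplp0, Rplp1, Rplp2 or Rpsa. Leaving out 6 symbols marked as pseudogenes, 9 kinases of the Rps6k group and Rps19bp1 left 85 genes, 52 of the large subunit and 33 of the small subunit. The study holds 9 liver libraries from C57BL/6 mice at postnatal day 98, 3 per group. Control replicates 1, 2 and 4 are labelled as control with no diet named. HFD replicates 1, 2 and 3 came from mice on a high-fat diet, and HFD+Pc replicates 1, 3 and 4 from mice on the same diet gavaged with the gut bacterium Papillibacter cinnamivorans. Mice were 6 weeks old when divided into groups of 15, and the labels name no vehicle gavage for the control and HFD groups. Since the number of animals behind each library is not stated, p-values here describe variation among libraries, which may be partly technical.

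Each ribosome has a small subunit, which reads the mRNA, and a large subunit, which joins amino acids and releases the growing chain through a tunnel. Nearly every ribosomal protein is present in 1 copy per ribosome, with the acidic stalk proteins as the main exception, and most cells keep these mRNAs among their most abundant. Ribosomal protein mRNAs typically begin with a C and a run of pyrimidines, the terminal oligopyrimidine tract, through which the mTORC1 kinase pathway and the RNA-binding protein Larp1 control their translation and stability. In liver, ribosome production is known to respond to feeding and insulin.

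Start sites of 8 members are shown because the same kind of pyrimidine run stands at genes that were lower and at genes that were higher in HFD+Pc livers. Sequences are RefSeq start sites in GRCm38.p6, not the GRCm39 build of the study, written 5′ to 3′ on the gene's own strand, with 15 bases before the listed start and 25 from it on. Capitals mark a C followed by at least 4 pyrimidines that begins within 10 bases of the listed start.
Rpl28: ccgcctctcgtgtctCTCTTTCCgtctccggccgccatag
Rpl35: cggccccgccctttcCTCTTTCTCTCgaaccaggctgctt
Rpl38: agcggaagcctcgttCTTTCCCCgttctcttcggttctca
Rpl7a: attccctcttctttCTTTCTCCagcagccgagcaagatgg
Rpl41: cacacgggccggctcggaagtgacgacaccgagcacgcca
Rps15a: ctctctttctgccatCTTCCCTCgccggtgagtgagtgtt
Rps21: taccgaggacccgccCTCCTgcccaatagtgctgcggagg
Rpl10: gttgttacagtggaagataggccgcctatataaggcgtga

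The first 5 belong to genes that fell in HFD+Pc against control and the last 3 to genes that rose. Rpl28 lies at chr7:4792950-4792989 on the plus strand, Rpl35 at chr2:39005107-39005146 (minus), Rpl38 at chr11:114668565-114668604 (plus) and Rpl7a at chr2:26910792-26910831 (plus). Rpl41 lies at chr10:128549144-128549183 (minus), Rps15a at chr7:118116123-118116162 (minus), the first of 2 listed starts of Rps21 at chr2:180257364-180257403 (plus) and Rpl10 at chrX:74270801-74270840 (plus). Rpl41 among the lower genes and Rpl10 among the higher ones have no such run in these windows. Among the 65 members in the start-site table, 14 (21.5%) had the run exactly at a listed start, against 3.01% of all 27025 genes in the table. Within 10 bases of a start 40 members (61.5%) had it, against 34.4% of all genes. Of the members lower in HFD+Pc against control that the table lists, 14 of 21 (66.7%) had it within 10 bases and 3 (14.3%) exactly at a start. The run was read on the gene's strand only. A match is a stretch of letters near a listed start, and a missing match says only that these letters are not in the window.

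Values are deposited FPKM, fragments scaled to transcript length and library size, and are given below in the order of the replicate numbers above. Differences are from limma on log2(FPKM + 1) ± SE, with Benjamini-Hochberg adjusted p-values over the 10988 genes that reached 1 FPKM in at least 3 libraries. A gene is called at an adjusted p under 0.05. Libraries held 16521564 to 18897852 reads recovered from the FPKM steps, and 3 reads in a gene of 1 kb corresponded to 0.160 to 0.179 FPKM. This floor covers counting error only. All 18 hepatocyte markers were tested and Alb averaged 33811 FPKM over the 9 libraries, so the libraries carry the labelled tissue.

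Ribosomal protein genes were among the higher genes of the liver. The median over the 80 tested members was 67.3 FPKM, against 4.42 FPKM over all tested genes, and 22 members averaged more than 100 FPKM. Rplp1, an acidic protein of the stalk that recruits elongation factors, was the highest, at 602, 571 and 577 FPKM in control, 606, 500.5 and 413 in HFD and 472, 478 and 582 in HFD+Pc. Rps3a1, a small subunit protein, stood next at 336, 299 and 293 FPKM in control, 356, 313 and 279 in HFD and 277, 279 and 327 in HFD+Pc. Rplp0, the base of the same stalk, followed at 268, 242 and 246 FPKM in control, 232, 231 and 202 in HFD and 208, 233 and 265 in HFD+Pc. Listed levels of proteins that most ribosomes hold in 1 copy thus reached far down from these values. Rpl24, a large subunit protein, was the lowest tested member, at 1.56, 0.857 and 1.45 FPKM in control, 2.28, 0.735 and 0.808 in HFD and 0.833, 0.637 and 0.517 in HFD+Pc. Rpl13a, known for its part in silencing of inflammatory mRNAs, was at 3.29, 2.42 and 2.96 FPKM in control, 3.09, 2.98 and 2.08 in HFD and 1.54, 1.55 and 2.30 in HFD+Pc. Rpl21 was at 9.72, 4.71 and 4.76 FPKM in control, 4.76, 4.51 and 4.72 in HFD and 2.81, 3.86 and 5.22 in HFD+Pc. Most of the reads of Rpl24 and Rpl21 lay in near-identical copies elsewhere, which are treated further on.

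The other 5 members were not tested because they stayed under 1 FPKM. Rpl10l and Rpl39l, paralogs known from testis, were listed at 0 in all 9 libraries. Rpl3l, the muscle paralog of Rpl3, reached at most 0.109 FPKM, which is 3 reads. Rpl36al reached at most 0.634 FPKM. Rps10, a small subunit protein found in every ribosome, also stayed at or under 0.693 FPKM.

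Summed over the 85 genes, the level was 8093, 7059.6 and 7129 FPKM in control, 7174, 6329 and 5706 in HFD, and 6062, 6207 and 7279 in HFD+Pc. Group means were 7427 ± 578, 6403 ± 737 and 6516 ± 665 (SD, n = 3), and the groups overlapped. As a share of all summed FPKM the members made up 1.89% ± 0.159, 1.68% ± 0.246 and 1.64% ± 0.134. Large subunit genes summed to 4342 ± 343 FPKM in control, 3614 ± 407 in HFD and 3557 ± 381 in HFD+Pc. Their control libraries, at 4096 to 4735 FPKM, lay above all HFD (3215 to 4028) and HFD+Pc libraries (3254 to 3984). Small subunit genes summed to 3085 ± 237, 2789 ± 331 and 2959 ± 291 FPKM, and the groups overlapped. In these bulk samples, fewer cells of a type and less RNA per cell cannot be told apart.

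**Figure D1:**
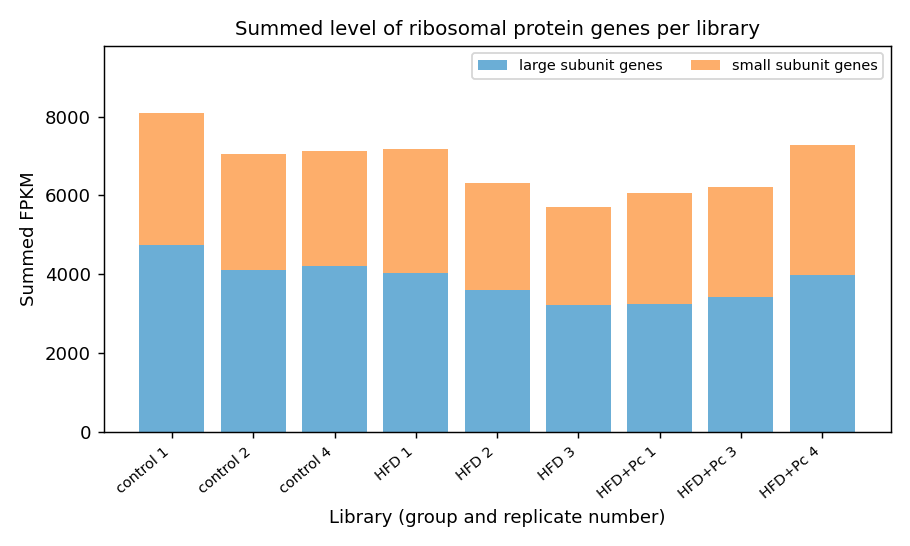
Summed FPKM of the 52 large subunit and 33 small subunit genes (stacked bars, y axis from 0) in each of the 9 libraries (x axis). Control replicate 1 is the highest at 8093 FPKM and HFD replicate 3 the lowest at 5706, and the 3 groups overlap in the total but not in the large subunit part, where control lies above both diet groups.

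Members moved together from library to library within a group. Control replicate 1 was the highest control library for 74 of the 80 tested members, HFD replicate 1 the highest HFD library for 68 and HFD+Pc replicate 4 the highest HFD+Pc library for 68. HFD replicate 3 was the lowest HFD library for 62. Counts of calls below are also given without single libraries.

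**Figure D2:**
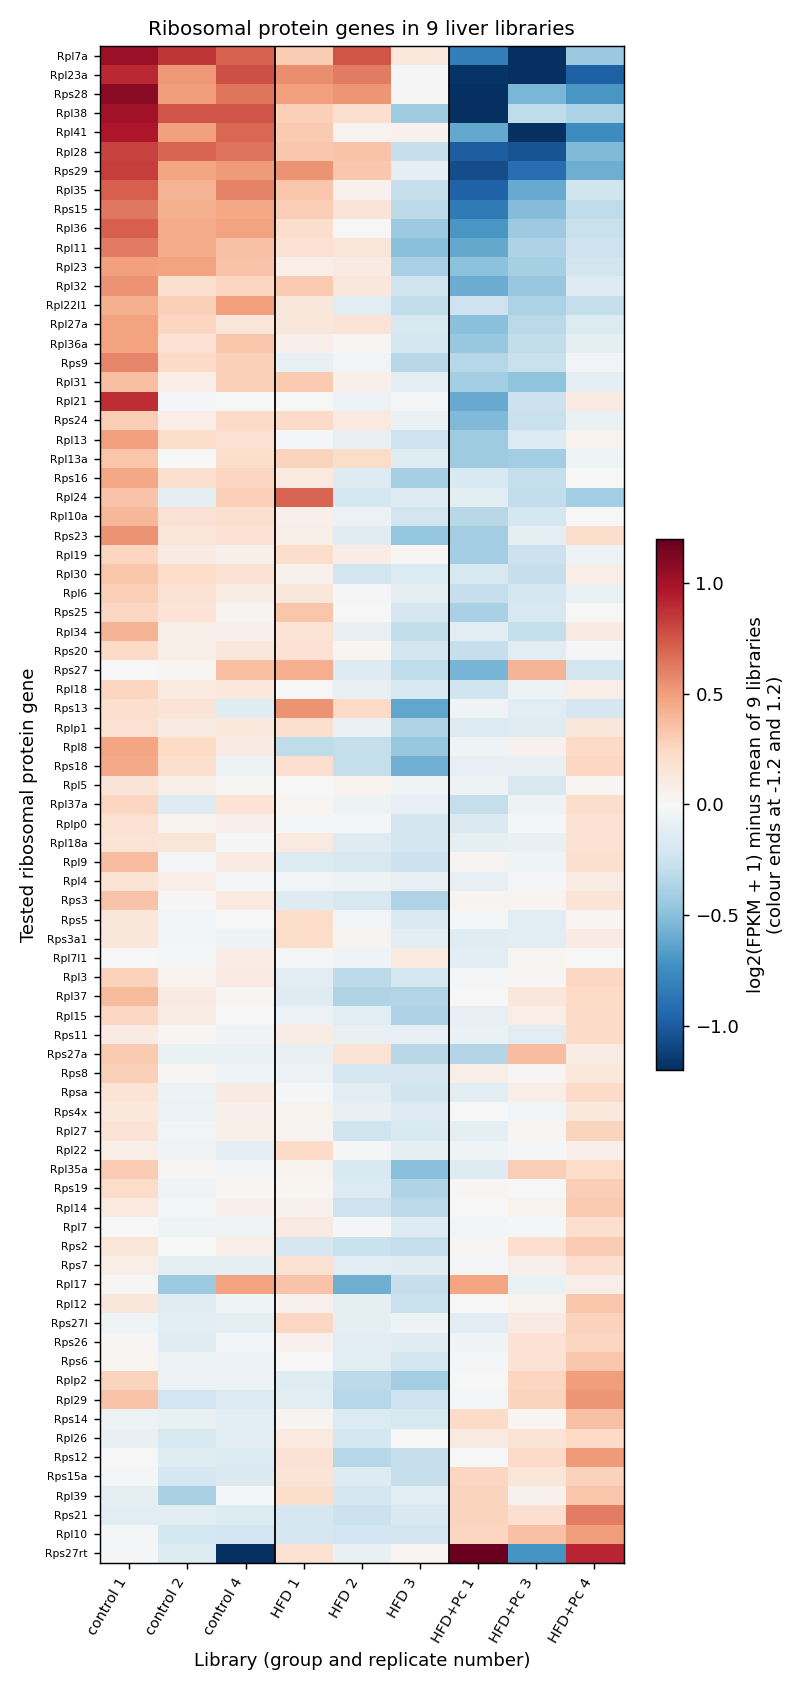
The 79 tested members shown (rows, ordered from the lowest to the highest difference of HFD+Pc against control) in the 9 libraries (columns), as log2(FPKM + 1) minus the gene's mean over all libraries, with colour ending at -1.2 and 1.2. Genes from Rpl7a to Rpl36 at the top run from red in control to blue in HFD+Pc, while Rps21 and Rpl10 near the bottom are reddest in HFD+Pc.

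With the high-fat diet alone, no ribosomal protein gene rose and 6 of 80 fell, 7.5% of the members, against 9.97% of all tested genes (5.35% called lower and 4.61% called higher). Those 6 were Rpl8, Rps9, Rpl23, Rpl22l1, Rpl37 and Rps3. The differences of 71 members were negative and the median was -0.22, against -0.0009 over all tested genes. This median was -0.14 without HFD replicate 3, and -0.14 by limma-voom, where that of all tested genes was 0.08. At an unadjusted p under 0.05, limma had 0 members higher and 26 lower, against 1472 higher and 1580 lower of all 10988 tested genes. With limma-voom on the recovered reads 0 members were called higher and 5 lower, against 1039 and 443 of 10986 genes. HFD libraries lay entirely under the control libraries for 29 members (16.4% of all tested genes did so) and above them for 0 (16.5%).

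Rpl8, a protein beside the peptidyl transferase centre of the large subunit, was listed at 191, 162 and 147 FPKM in control, 111, 112 and 99.7 in HFD and 132, 143 and 161 in HFD+Pc. All 3 HFD libraries were under all others, and the HFD mean was 64.4% of the control mean (difference -0.62 ± 0.12, limma adjusted p = 0.0168). In HFD+Pc the gene differed from control by -0.20 ± 0.12 (adjusted p = 0.254) and from HFD by 0.43 ± 0.12 (adjusted p = 0.138), neither past the threshold. Rpl37, a zinc-binding large subunit protein, had the same order of groups, with 49.8, 40.9 and 38.5 FPKM in control, 34.01, 29.4 and 29.5 in HFD and 37.8, 41.9 and 44.9 in HFD+Pc. It fell by 0.46 on the log2 scale in HFD against control (SE 0.11, adjusted p = 0.0378), and HFD+Pc overlapped control. With the reads of its near-identical copies added, this difference was -0.30 (limma-voom adjusted p = 0.104) and not called. Rps3, at the mRNA entry of the small subunit, read 59.7, 47.4 and 50.9 FPKM in control, 42.1, 40.98 and 36.4 in HFD and 48.1, 48.1 and 52.7 in HFD+Pc. Its difference in HFD against control was -0.39 ± 0.10 (adjusted p = 0.0438), and here too HFD+Pc overlapped control.

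Rpl36 and Rpl38 had larger differences that did not pass, -0.62 ± 0.17 (limma adjusted p = 0.0520) and -0.82 ± 0.38 (adjusted p = 0.201). The most positive differences were those of Rps27rt, 0.54 ± 0.49 (adjusted p = 0.506), Rps27l, 0.12 ± 0.13 (adjusted p = 0.583), and Rpl39, 0.13 ± 0.14 (adjusted p = 0.576), and none passed.

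Rps9, Rpl23 and Rpl22l1 were lower in both high-fat diet groups than in control. Rps9, a core protein of the small subunit, was at 101, 78.7 and 82.1 FPKM in control, 62.9, 65.3 and 52.99 in HFD and 52.6, 55.4 and 65.5 in HFD+Pc, with differences from control of -0.52 ± 0.13 in HFD (adjusted p = 0.0370) and -0.58 ± 0.13 in HFD+Pc (adjusted p = 0.0129). Rpl23, a large subunit protein at the subunit interface that also binds the p53 regulator Mdm2, was at 70.3, 69.6 and 63.1 FPKM in control, 52.5, 53.3 and 37.6 in HFD and 34.9, 37.5 and 42.5 in HFD+Pc. Its differences were -0.51 ± 0.14 (adjusted p = 0.0470) and -0.81 ± 0.14 (adjusted p = 0.00493). Rpl22l1, the paralog of Rpl22, was at 8.82, 7.93 and 9.28 FPKM in control, 7.04, 5.68 and 4.96 in HFD and 5.15, 4.62 and 5.001 in HFD+Pc, with -0.50 ± 0.11 (adjusted p = 0.0270) and -0.71 ± 0.11 (adjusted p = 0.00378). These pairs of differences share the control libraries.

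The 6 calls of HFD against control depended on single libraries. Rpl8 passed in 7 of 9 fits that each left out 1 library, and missed without control replicate 1 (adjusted p = 0.0527) and without control replicate 2 (adjusted p = 0.0505). Rpl22l1 passed in 4, Rpl37 in 3, Rps9 in 2, and Rpl23 and Rps3 in 0 of 9, with largest adjusted p-values of 0.0775, 0.106, 0.108, 0.125 and 0.126. The number of members called lower was 0 without control replicate 1 or 2, 2 without control replicate 4, 1 without HFD replicate 2 or 3 and 4 without HFD replicate 1. It was 7, 3 and 4 without HFD+Pc replicate 1, 3 and 4. Calls were also lost over all tested genes, where 588 were lower with all libraries. Of these genes 173, 171 and 292 were called lower without control replicate 1, 2 and 4. Without HFD replicate 1, 2 and 3 there were 266, 326 and 305. Without HFD+Pc replicate 1, 3 and 4 there were 608, 427 and 471.

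Between the gavaged and the plain high-fat diet livers, 3 ribosomal protein genes fell, Rpl23a, Rps29 and Rpl41, and Rpl10 rose. These 4 are 5.0% of the 80 tested members, against 0.628% of all tested genes (0.446% called lower and 0.182% called higher). Differences were positive for 40 members and negative for 40, with limma counts of 17 higher and 15 lower at an unadjusted p under 0.05 (836 and 882 of all 10988 tested genes) and a median of 0.01, against 0.01 over all tested genes. HFD+Pc libraries lay entirely above the HFD libraries for 11 members (10.2% of all tested genes) and entirely under them for 8 (9.56%).

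Rpl23a (ENSMUSG00000058546), which sits at the exit of the peptide tunnel and docks the signal recognition particle, was listed at 82.4, 62.7 and 74.9 FPKM in control, 64.4, 67.6 and 43.05 in HFD and 18.7, 18.1 and 21.5 in HFD+Pc. The HFD+Pc mean of 19.4 ± 1.83 FPKM (SD, n = 3) was 33.3% of the HFD mean of 58.4 ± 13.4, and the groups did not overlap (difference -1.51 ± 0.17, limma adjusted p = 0.0119). Rps29 (ENSMUSG00000034892), a small zinc-binding protein of the small subunit, was at 124, 96.4 and 99.2 FPKM in control, 101, 86.8 and 63.7 in HFD and 32.6, 36.2 and 45.8 in HFD+Pc. Its HFD+Pc mean was 45.6% of the HFD mean, again with no overlap (difference -1.10 ± 0.19, adjusted p = 0.0462). Rpl41 (ENSMUSG00000093674), the shortest ribosomal protein and part of a bridge between the subunits, was at 228, 163 and 188 FPKM in control, 145, 119.5 and 121 in HFD and 75.7, 50.2 and 68.5 in HFD+Pc. Here each of the 3 groups was separate from the others, and the HFD+Pc mean was 50.4% of the HFD mean (difference -0.99 ± 0.17, adjusted p = 0.0463). No near-identical copy of the Rpl41 coding sequence was found elsewhere in the annotation.

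Rpl10 (ENSMUSG00000008682), an X-linked protein that joins the large subunit late in its assembly, was listed at 173, 151 and 149 FPKM in control, 152, 149 and 150.3 in HFD and 209.7, 223 and 247 in HFD+Pc. All 3 HFD+Pc libraries were above all 6 others, and the 3 HFD libraries spanned only 149 to 152 FPKM. The HFD+Pc mean was 151% of the HFD mean (difference 0.58 ± 0.10, limma adjusted p = 0.0458).

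**Figure D3:**
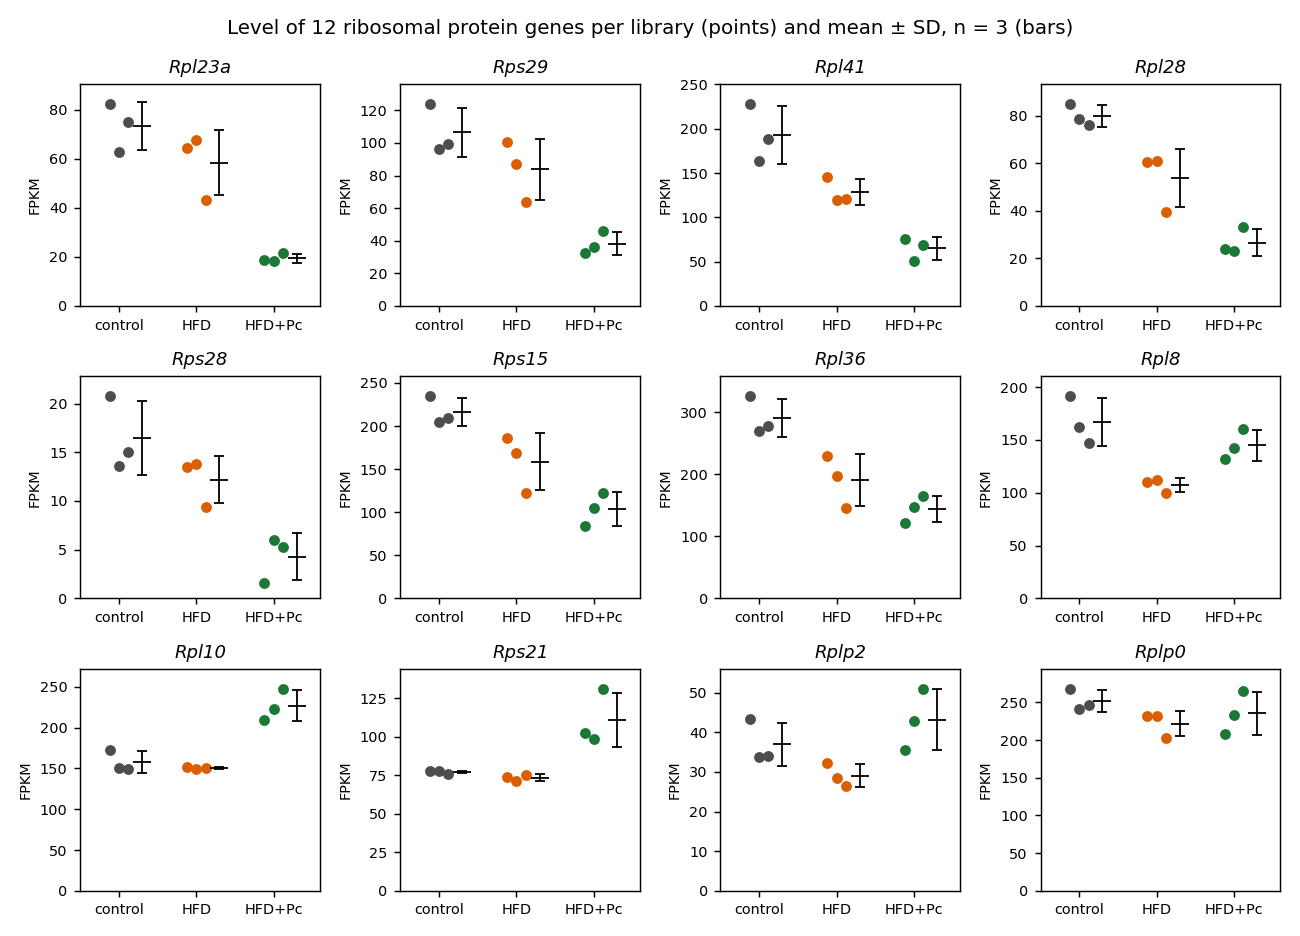
FPKM (y axes, from 0) of 12 members in control, HFD and HFD+Pc (HFD with the gavaged bacterium), with 1 point per library and a bar for the mean ± SD of 3 libraries. Rpl23a, Rps29, Rpl41, Rpl28 and Rps28 are lowest in HFD+Pc with no overlap, Rpl10 and Rps21 are highest there, and Rpl8 is lowest in HFD.

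Several members had differences of this size or larger without passing. Rpl7a differed by -1.66 ± 0.45 (adjusted p = 0.130), Rps28 by -1.44 ± 0.35 (adjusted p = 0.112) and Rpl28 by -0.98 ± 0.18 (adjusted p = 0.0526). Among positive differences, Rps21 stood at 0.57 ± 0.11 (adjusted p = 0.0526) and the stalk protein Rplp2 at 0.54 ± 0.14 (adjusted p = 0.121). With the reads recovered from FPKM, limma-voom called 2 members higher and 4 lower, adding Rps21 (adjusted p = 0.0333) and Rpl28 (adjusted p = 0.0307). It also called more of all genes, 35 higher and 148 lower of 10986, against 20 and 49 of 10988 by limma. With per-library trends in gene length and GC content removed, 3 members were called higher and 4 lower, against 58 and 77 of 10793 genes.

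Only Rpl23a was called in most fits with a library left out, 7 of 9. It missed without HFD replicate 2 (adjusted p = 0.0611) and without HFD+Pc replicate 3 (adjusted p = 0.0556). Rps29 passed in 1 of 9, and Rpl41 and Rpl10 in 0 of 9, with adjusted p-values of at most 0.143 for each of the 3. The number called lower was 0 without HFD replicate 2 or HFD+Pc replicate 3, 3 without HFD replicate 3 and 1 without each of the other 6 libraries, controls included. The number called higher was 0 in all 9 of these fits. Over all tested genes the same fits called 1 to 39 higher and 3 to 84 lower, against 20 and 49 with all libraries.

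In gavaged high-fat diet livers against control, 27 ribosomal protein genes fell and 3 rose, 37.5% of the 80 tested members, against 23.1% of all tested genes (11.9% called lower and 11.1% called higher). The differences of 58 members were negative and 22 were positive, with a median of -0.15, against 0.01 over all tested genes. Without control replicate 1 the median was -0.06, and without HFD+Pc replicate 1 it was -0.08. HFD+Pc lay entirely under control for 31 members (20.8% of all tested genes) and entirely above it for 6 (22.1%). This comparison combines the diet and the gavage, and it shares its libraries with the other comparisons.

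**Figure D4:**
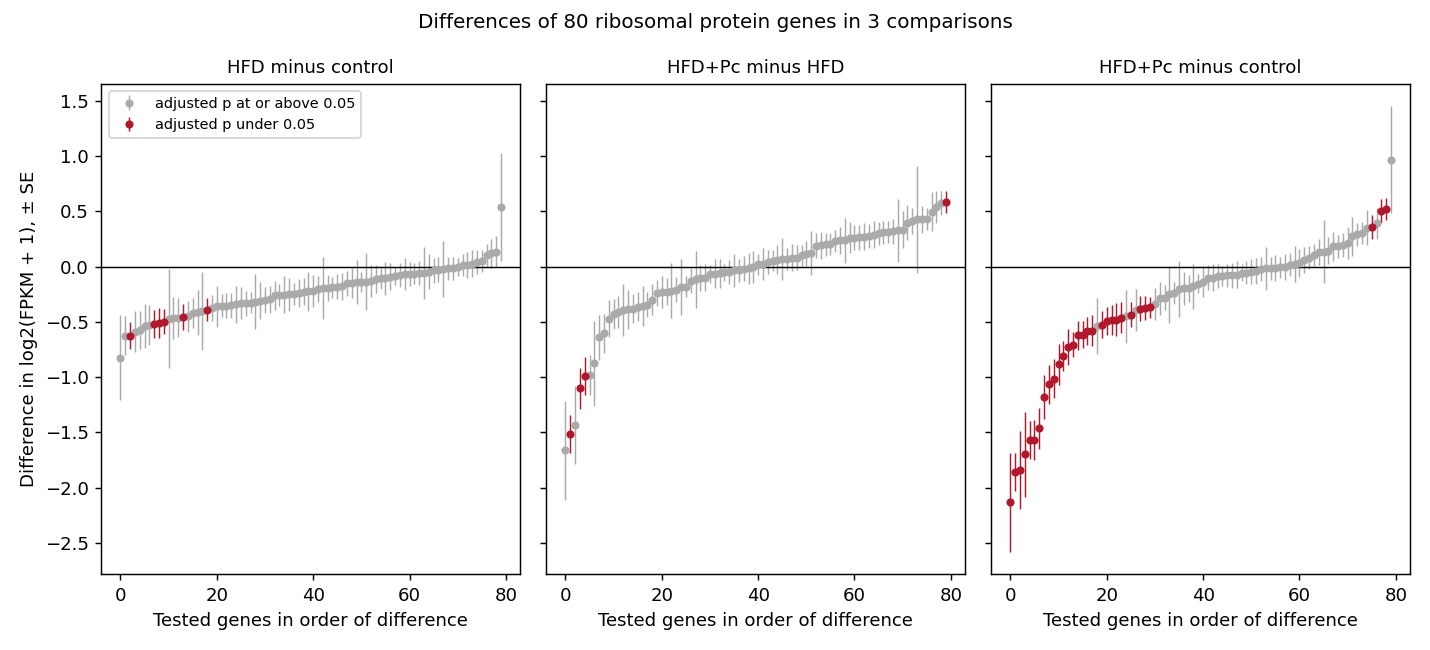
Difference in log2(FPKM + 1) ± SE (y axis) of the 80 tested members in the 3 comparisons, each panel in order of difference (x axis), with genes at an adjusted p under 0.05 in red. In HFD against control 6 red points all lie under 0, in HFD+Pc against HFD there are 3 under and 1 above, and in HFD+Pc against control 27 under and 3 above.

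Among the 27 falls, 10 were larger than 1 on the log2 scale. Rpl7a, a large subunit protein, was listed at 16.99, 14.9 and 13.4 FPKM in control, 9.88, 13.9 and 8.58 in HFD and 3.95, 0.536 and 5.45 in HFD+Pc, a difference of -2.13 ± 0.45 (limma adjusted p = 0.0116). Rps28, which lines the mRNA exit channel, was at 20.7, 13.6 and 15.1 FPKM in control, 13.4, 13.8 and 9.38 in HFD and 1.53, 6.004 and 5.30 in HFD+Pc, a difference of -1.84 ± 0.35 (adjusted p = 0.00839). Rpl38, known for its effect on translation of Hox mRNAs in the mouse embryo, was at 107, 89.8 and 89.6 FPKM in control, 64.5, 60.5 and 38.8 in HFD and 13.5, 42.6 and 40.2 in HFD+Pc, a difference of -1.70 ± 0.38 (adjusted p = 0.0147). For each of these genes 1 HFD+Pc library was well under the other 2, replicate 3 for Rpl7a and replicate 1 for Rps28 and Rpl38, and all 3 HFD+Pc libraries were under all control libraries. Rpl38 missed the threshold without control replicate 1 (adjusted p = 0.0599).

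Rpl28, a large subunit protein with no counterpart in yeast, was at 84.9, 78.4 and 76.1 FPKM in control, 60.5, 61.1 and 39.5 in HFD and 23.8, 22.96 and 33.02 in HFD+Pc. The groups formed 3 separate levels, and the HFD+Pc mean was 33.3% of control (difference -1.57 ± 0.18, limma adjusted p = 0.00156). Against control, Rpl23a differed by -1.86 ± 0.17 (adjusted p = 0.00105), Rpl41 by -1.57 ± 0.17 (adjusted p = 0.00141) and Rps29 by -1.46 ± 0.19 (adjusted p = 0.00190). These 4 genes passed in all 9 fits with a library left out, with adjusted p-values of at most 0.0112.

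Rpl35, which lies beside Rpl23a at the tunnel exit, was at 65.1, 52.6 and 59.8 FPKM in control, 49.8, 40.7 and 32.4 in HFD and 19.6, 25.5 and 33.1 in HFD+Pc (difference -1.18 ± 0.20, limma adjusted p = 0.00543). Rps15, in the head of the small subunit, was at 234, 204 and 209.6 FPKM in control, 186, 169 and 122 in HFD and 83.8, 105 and 123 in HFD+Pc (difference -1.07 ± 0.18, adjusted p = 0.00443). Rpl36 was at 326, 269.8 and 278 FPKM in control, 229, 198 and 146 in HFD and 122, 147 and 165 in HFD+Pc (difference -1.01 ± 0.17, adjusted p = 0.00513). For these 3 genes HFD+Pc lay under control without overlap, and HFD replicate 3 was within the HFD+Pc range. They too passed in all 9 fits with a library left out.

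Among the other falls, Rpl11, which with Rpl5 and the 5S RNA forms the particle that binds Mdm2, was at 71.5, 63.2 and 59.2 FPKM in control, 52.6, 51.2 and 32.2 in HFD and 29.7, 35.4 and 38.7 in HFD+Pc (difference -0.89 ± 0.18). Its partner Rpl5 was at 56.2, 52.95 and 50.7 FPKM in control, 50.3, 51.7 and 48.4 in HFD and 48.1, 44.03 and 51.3 in HFD+Pc (difference -0.16 ± 0.08, limma adjusted p = 0.205) and was not called. The difference between the partners was not tested.

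Smaller falls covered further sites of the large subunit. At the tunnel exit, Rpl31 was at 69.7, 57.3 and 66.4 FPKM in control, 67.6, 56.7 and 50.3 in HFD and 40.5, 38.5 and 49.8 in HFD+Pc (difference -0.58 ± 0.14, limma adjusted p = 0.0162). Rpl19, which reaches from the exit side to the subunit interface, was at 222, 198 and 193 FPKM in control, 215, 198 and 187 in HFD and 139, 155 and 177 in HFD+Pc (difference -0.38 ± 0.11, adjusted p = 0.0371). For both genes HFD+Pc lay under control and under HFD without overlap. Rpl26, also at the tunnel exit, stood at 0.30 ± 0.10 (adjusted p = 0.0530) and was not called. Rpl10a, the protein of the L1 stalk that guides spent tRNA out, was at 77.6, 66.1 and 67.05 FPKM in control, 61.2, 55.5 and 50.1 in HFD and 46.4, 50.5 and 58.6 in HFD+Pc (difference -0.44 ± 0.12). Rpl36a, which lies near the tRNA exit site, was at 35.5, 28.6 and 31.9 FPKM in control, 26.3, 25.5 and 21.6 in HFD and 18.1, 20.4 and 23.3 in HFD+Pc (difference -0.61 ± 0.12). In these 2 genes the HFD and HFD+Pc libraries overlapped.

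Rpl32 was at 149.8, 118 and 123 FPKM in control, 128, 113 and 87.3 in HFD and 67.9, 75.1 and 92.5 in HFD+Pc (difference -0.73 ± 0.17). Rpl27a was at 78.96, 67.3 and 62.4 FPKM in control, 62.1, 62.7 and 49.1 in HFD and 39.6, 44.7 and 50.2 in HFD+Pc (difference -0.62 ± 0.13). Rpl13 was at 98.6, 81.4 and 79.3 FPKM in control, 68.8, 65.5 and 58.7 in HFD and 51.6, 62.2 and 72.01 in HFD+Pc (difference -0.48 ± 0.14). In all 3 the HFD libraries overlapped HFD+Pc, and for Rpl13 they lay under control too. Rpl30, an RNA-binding protein of the large subunit, was at 33.1, 30.6 and 29.6 FPKM in control, 27.1, 22.3 and 23.2 in HFD and 22.7, 21.3 and 27.6 in HFD+Pc (difference -0.37 ± 0.11). Rpl6 was at 73.8, 68.3 and 64.3 FPKM in control, 66.2, 59.3 and 55.7 in HFD and 49.6, 52.3 and 57.1 in HFD+Pc (difference -0.37 ± 0.10). With Rpl13a (-0.48 ± 0.15), Rpl23 and Rpl22l1 these completed the 20 large subunit falls.

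Small subunit falls were fewer. Rps24 was at 30.5, 26.1 and 28.996 FPKM in control, 29.1, 26.7 and 23.2 in HFD and 16.7, 20.3 and 23.3 in HFD+Pc (difference -0.49 ± 0.13). Rps16, whose tail reaches the tRNA in the decoding site, was at 146, 120.5 and 127 FPKM in control, 114, 94.9 and 80.01 in HFD and 92.7, 86.4 and 105 in HFD+Pc (difference -0.46 ± 0.14), with HFD and HFD+Pc overlapping and both under control. Rps28, Rps29, Rps15 and Rps9 also fell. Rps24, Rps28, Rps29 and Rpl11 are among the genes known to be mutated in Diamond-Blackfan anaemia, an inherited failure of red cell production. They are picked from the falls, and the genes of that disease were not examined as a list.

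The 3 rises were those of Rpl10, Rps21 and Rps15a. Rpl10 differed by 0.52 ± 0.10 (limma adjusted p = 0.00676). Rps21, a small subunit protein, was listed at 77.6, 77.6 and 75.97 FPKM in control, 73.9, 71.1 and 75.1 in HFD and 103, 98.5 and 131 in HFD+Pc, with the 6 control and HFD libraries between 71.1 and 77.6 FPKM and all HFD+Pc libraries above them (difference 0.51 ± 0.11, adjusted p = 0.0115). Rps15a, in the body of the small subunit, was at 14.2, 12.5 and 12.7 FPKM in control, 16.2, 12.9 and 11.7 in HFD and 17.5, 16.1 and 17.7 in HFD+Pc, where HFD replicate 1 reached the HFD+Pc range (difference 0.36 ± 0.11, adjusted p = 0.0442). Rpl10 and Rps21 passed in all 9 fits with a library left out, and Rps15a in 2, with a largest adjusted p of 0.124. With length and GC trends removed, 7 members were called higher and 27 lower, against 1053 and 989 of 10793 genes. In that limma fit Rps15a (0.27, adjusted p = 0.132), Rpl19 (-0.22, adjusted p = 0.114) and Rpl13a (-0.41, adjusted p = 0.0517) were no longer called.

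Counts by subunit stood at 20 falls and 1 rise among 48 tested large subunit genes (median -0.22) and 7 falls and 2 rises among 32 small subunit genes (median -0.05). Among the 40 members with the shorter coding sequences, up to 453 bases, 18 fell and 2 rose (median -0.31). Among the 40 with longer ones 9 fell and 1 rose (median -0.08). Calls in either direction made up 43.8% of the large subunit and 50% of the shorter genes, against 23.1% of all tested genes. The 28.1% of the small subunit and 25% of the longer genes were nearer that share. By direction, each of these lists was more uneven than all tested genes, with 1313 falls against 1225 rises. These splits are counts without a test, and Spearman's rho between coding length and difference over the 80 members was 0.17. Over all 10793 tested genes with a known length and GC content, the difference went with GC content at a rho of -0.39 (-0.36 for HFD against control and -0.16 for HFD+Pc against HFD), and over the 80 members at -0.11, -0.26 and -0.03 for the same comparisons. Genes share libraries and are not replicates.

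Without control replicate 1, the library with the highest summed level, 15 members were called lower against control, and without HFD+Pc replicate 3 there were 17. Leaving out HFD+Pc replicate 1 gave 19, and each of the other 6 libraries 22 to 27. The number called higher ranged from 2 to 5, the latter without HFD replicate 1. Over all tested genes calls lower also went down, from 1313 to 864 without control replicate 1. There were 796 without HFD+Pc replicate 3, 1027 without HFD+Pc replicate 1 and 848 to 1379 without each of the others. Calls higher over all tested genes were 600 to 1265 in these fits, against 1225 with all libraries. Of the smaller falls, Rpl19 and Rps16 passed in 3 of 9 fits, Rpl30 and Rpl13a in 4, Rpl6, Rpl13 and Rps24 in 5, Rpl10a in 6, and Rpl31 and Rpl32 in 7. The largest adjusted p among them was 0.135, for Rps16.

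The 47 members called in no comparison had differences of -0.46 to 0.54 in HFD against control, -0.39 to 0.54 in HFD+Pc against HFD and -0.54 to 0.97 in HFD+Pc against control, with Rps27rt at the upper end of the first and last. The stalk proteins were among them. Rplp2, partner of Rplp1, was at 43.3, 33.9 and 33.9 FPKM in control, 32.1, 28.5 and 26.6 in HFD and 35.6, 42.8 and 50.95 in HFD+Pc, so that all HFD+Pc libraries were above all HFD libraries but overlapped control. Rplp1 differed from control by -0.22 ± 0.15 in HFD and -0.20 ± 0.15 in HFD+Pc, and Rplp0 by -0.18 ± 0.11 and -0.10 ± 0.11. Rpsa, a small subunit protein also known as a laminin receptor, was at 128, 109.6 and 123 FPKM in control, 113, 103 and 96.2 in HFD and 104, 120.4 and 134 in HFD+Pc, with overlapping HFD+Pc and control groups. Rps6, the substrate of the S6 kinases under mTORC1, was at 173, 162 and 163 FPKM in control, 171, 155 and 147 in HFD and 167, 192 and 214 in HFD+Pc (HFD+Pc against HFD 0.27 ± 0.11, limma adjusted p = 0.271).

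Among paralogs, Rpl22l1 fell in both diet groups against control and Rpl22, at 31.4, 28.7 and 27.5 FPKM in control, 34.95, 29.1 and 27.2 in HFD and 28.6, 29.1 and 30.9 in HFD+Pc, differed by 0.05 ± 0.10 and 0.02 ± 0.10. The difference between the paralogs was not tested. Rps27l, a p53 target and paralog of Rps27, was at 137, 129.9 and 132 FPKM in control, 169, 131 and 136 in HFD and 130.1, 153 and 172 in HFD+Pc with no call. Rpl7l1 hardly differed between libraries, at 14.1, 13.8 and 15.04 FPKM in control, 13.8, 13.6 and 15.4 in HFD and 12.8, 14.3 and 14.03 in HFD+Pc. Rpl39, whose protein lines the tunnel, was at 76.95, 63.1 and 81.9 FPKM in control, 96.1, 72.1 and 75.9 in HFD and 100.3, 86.4 and 105 in HFD+Pc (HFD+Pc against control 0.39 ± 0.14, limma adjusted p = 0.0699).

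Rps27 and Rps27rt, its retrogene, have near-identical coding sequences. Rps27 was at 70.9, 71.6 and 90.8 FPKM in control, 95.7, 63.4 and 56.9 in HFD and 47.7, 93.9 and 60.3 in HFD+Pc. Rps27rt was at 137, 124 and 54.99 FPKM in control, 157, 130.4 and 141 in HFD and 318, 84.5 and 261 in HFD+Pc, the widest spread within groups of any tested member. Control replicate 4 and HFD+Pc replicate 3 had the highest Rps27 and the lowest Rps27rt of their groups, while HFD replicate 1 had the highest of both. Rps27rt alone differed by 0.97 ± 0.49 in HFD+Pc against control (limma adjusted p = 0.178, and 0.0288 without HFD+Pc replicate 3). Summed with their copies, both gave 2338, 2056 and 2085 reads in control, 2911, 1973 and 1887 in HFD and 2950, 2174 and 2714 in HFD+Pc. The summed difference of HFD+Pc against control was 0.34 (limma-voom adjusted p = 0.113), and the split of reads between these genes is uncertain.

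Other members share reads with pseudogenes. Of the 85 members, 76 had at least 1 transcript elsewhere in the GENCODE M21 annotation at 90% identity over 80% of the coding sequence, and how the authors assigned reads that fit several places is not given in the sources used here. Copies held most of the reads for Rpl21 (85.5%), Rpl7a (73.9%), Rpl17 (73.5%), Rpl24 (66.7%) and Rps27rt (56.5%). They held 41.7% for Rps28, 30.6% for Rpl35, 27.02% for Rpl38 and 26.4% for Rpl23a, but 12.4% for Rps29, 5.09% for Rpl28, 2.06% for Rpl10 and 0.145% for Rps21. Rpl41, Rpl8 and Rps3 were among 7 tested members with none.

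Adding the copies' reads, an alternative chosen after seeing the data, reduced the size of 4 of the largest falls and ended none of the 4 calls. For HFD+Pc against control, Rpl7a went from -2.71 alone to -1.39 with its copies on the limma-voom log2 scale, Rpl23a from -1.91 to -1.19, Rps28 from -2.15 to -1.84 and Rpl38 from -1.74 to -1.36. All 4 sums were called (limma-voom adjusted p = 0.000333, 0.000436, 6.1e-05 and 0.00391). Rpl24 became called with its copies, at -1.06 (adjusted p = 0.0157). Rpl21, at -0.65 alone, stood at -0.14 with them (adjusted p = 0.428). The sums ended the calls of Rpl6 (-0.19, adjusted p = 0.180), whose copies held 24.9% of the reads, and of Rpl13a (-0.59, adjusted p = 0.0650). In all, 26 members fell and 3 rose by the sums, against 1344 falls and 1381 rises among all 10986 genes. For HFD against control 4 fell and 0 rose, against 444 and 1043 of all 10986 genes, and Rpl37 was not called, as above. Rps3, which has no copies, was at -0.32 by limma-voom (adjusted p = 0.0674) and was not called there either. For HFD+Pc against HFD the sums called 6 lower, namely Rpl23a (-0.99), Rpl7a (-0.99), Rps28 (-1.62), Rpl28 (-1.08), Rps29 (-1.13) and Rpl41 (-1.08), and 2 higher, Rpl10 (0.50) and Rps21 (0.50). Of all 10986 genes 154 were lower and 35 higher in that fit. Limma-voom without the copies called 4 members lower and 2 higher, and 148 and 35 of all genes.

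**Figure D5:**
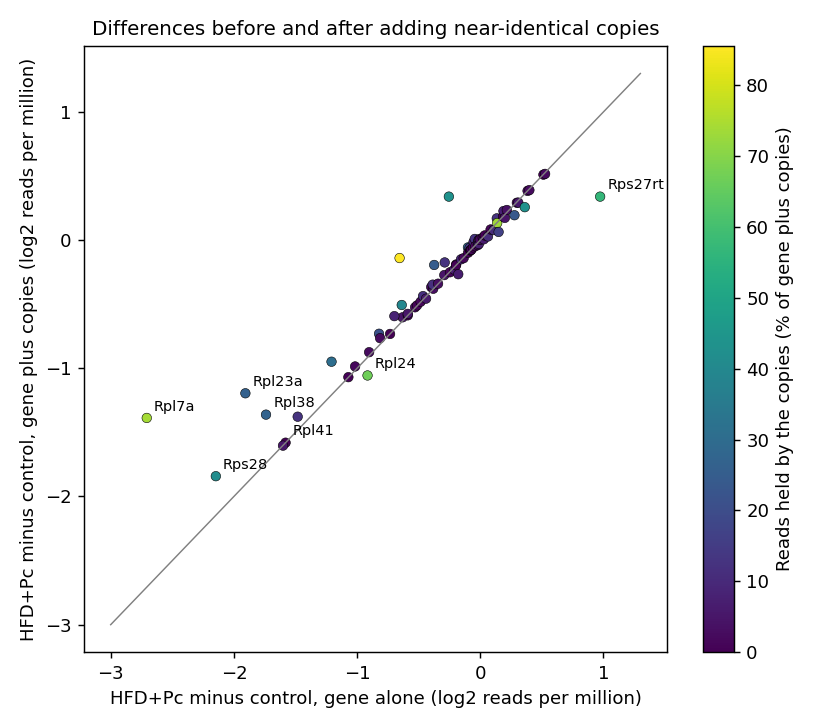
Difference of HFD+Pc against control for the 80 tested members from reads of the gene alone (x axis) and of the gene plus its near-identical copies (y axis), both as log2 differences from limma-voom, coloured by the share of reads the copies hold. Points on the grey line are equal in both, Rpl7a and Rpl23a lie above it with smaller falls in the sum, and Rps27rt lies under it.

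Rows of ribosomal protein pseudogenes, 289 in the table of which 53 were tested, gave 4 higher and 14 lower in HFD+Pc against control (median -0.24), 1 and 3 in HFD against control (median -0.15) and 1 and 0 in HFD+Pc against HFD (median -0.18). At an unadjusted p under 0.05 the last had 10 higher and 17 lower, and limma-voom called 2 and 1. These rows can hold reads of the members themselves. Limma calls made up 34.0%, 7.55% and 1.89% of the tested rows in the same order, against 23.1%, 9.97% and 0.628% of all tested genes. Genes under 1000 bases other than the members, 963 tested, had 70 higher and 159 lower in HFD+Pc against control (median -0.08). The 23.8% called is near the 23.1% of all tested genes. By direction the list was more uneven, with 159 falls against 70 rises, than all tested genes, with 1313 against 1225 by limma. The part of gene length in the members' falls was not tested.

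Mitochondrial ribosomal proteins, which serve the separate ribosomes of mitochondria, were called in both directions, with 9 higher and 12 lower of 77 in HFD+Pc against control and a median of 0.0005. These are 27.3% of the list, near the 23.1% of all tested genes. Mrpl1 rose (0.96 ± 0.10, limma adjusted p = 0.00139) and Mrps21 fell (-1.22 ± 0.14, adjusted p = 0.00148). Of this list limma called only Mrps21 in HFD+Pc against HFD, where limma-voom called 3 lower, and it fell from 25.9 ± 2.58 to 12.04 ± 2.30 FPKM (difference -1.06 ± 0.14, adjusted p = 0.0168). In HFD against control 5 were higher and 2 lower, 9.09% of the list against 9.97% of all tested genes.

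Among 38 ribosome biogenesis factors, 3 were higher and 8 lower in HFD+Pc against control (median -0.05), 28.9% of the list against 23.1% of all tested genes. Those lower included Pes1, needed for large subunit maturation (-0.57 ± 0.08, limma adjusted p = 0.00302), and Nop10, a core protein of the pseudouridylation particles (-0.78 ± 0.12, adjusted p = 0.00378), and Ddx10 and Wdr12 were among those higher (0.43 and 0.29). Nop10 also fell in HFD+Pc against HFD, from 25.4 ± 2.86 to 15.4 ± 2.67 FPKM (adjusted p = 0.0463). Of 10 tested genes of RNA polymerase I, which makes the large ribosomal RNAs, Polr1a (-0.36 ± 0.09) and the factor Ubtf (-0.26 ± 0.06) fell in HFD+Pc against control, and limma called 0 in the other comparisons, as did limma-voom, with 0 at an unadjusted p under 0.05 in HFD against control and 1 lower in HFD+Pc against HFD.

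Initiation factors were called in both directions and elongation factors only lower. The calls were 34.5% and 25% of these lists, against 23.1% of all tested genes (11.1% higher and 11.9% lower). The 24.0% of the mTORC1 list, 25% of the small nucleolar RNA hosts and 23.1% of the chaperones given next were near that share. Of 29 initiation factors, 8 were higher and 2 lower in HFD+Pc against control, among them the helicase Eif4a2 (0.58 ± 0.08, limma adjusted p = 0.00206) and its paralog Eif4a1 (-0.42 ± 0.08, adjusted p = 0.00687). In HFD against control Eif4a2 rose (0.35), and Eif6, which keeps the subunits apart (-0.54), and Eif1 (-0.37) fell. Of 8 elongation factors, Eif5a (-0.42 ± 0.10) and Eef1g (-0.34 ± 0.09) fell in HFD+Pc against control. Of 25 tested genes of the mTORC1 pathway and its regulators of pyrimidine-run mRNAs, Mtor (0.27) and Eif4ebp2 (0.24) were higher, and 4 were lower, including Akt1 (-0.44 ± 0.10, adjusted p = 0.0133) and Eif4ebp1 (-0.47 ± 0.11, adjusted p = 0.0179). Larp1 itself was among the 4, at -0.27 ± 0.09 (adjusted p = 0.0459). Of 8 tested noncoding hosts of small nucleolar RNAs, Snhg6 rose (0.49) and Gas5 fell (-0.52). Of 13 chaperones of ribosomal proteins and nascent chains, Dnajc2 (0.29) and Nap1l1 (0.30) rose and Aamp fell (-0.33).

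Markers of other liver cells also differed between groups. Summed over 16 macrophage and Kupffer cell markers, the level was 507 to 709 FPKM in control, 494 to 678 in HFD and 358 to 560.3 in HFD+Pc. All 16 had a negative difference in HFD+Pc against HFD (median -0.43) with 0 called by limma or limma-voom and 8 at an unadjusted p under 0.05. In HFD+Pc against control C1qa (-1.18) and C1qc (-0.54) fell, 12.5% of the list against 23.1% of all tested genes. Summed over 11 endothelial markers the level was 123 to 137, 88.3 to 111 and 99.1 to 101 FPKM, and all 11 were negative in both diet groups against control, with 3 called in each. That is 27.3% of this list, against 9.97% of all tested genes for HFD and 23.1% for HFD+Pc. No marker of these 2 lists stayed under 1 FPKM, and no marker of any list below was at 0 in every library.

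B and plasma cell markers summed to 27.95 to 42.1 FPKM in control, 61.9 to 95.1 in HFD and 32.02 to 45.9 in HFD+Pc, with Ms4a1 and Mzb1 under 1 FPKM throughout. In HFD against control 3 of 7 tested were higher, 42.9% against 9.97% of all tested genes. Stellate cell markers summed to 102 to 115, 82.5 to 92.6 and 81.5 to 99.96 FPKM, of which 1 gene averaged 54.9, 36.6 and 38.4. In HFD+Pc against control 1 of the 11 was called higher and 3 lower, 36.4% against 23.1% of all tested genes. Erythroid markers summed to 254 to 397, 233 to 359 and 169 to 233 FPKM, with Slc4a1 under 1 FPKM throughout and Hba-a2, Hbb-bs and Hbb-bt lower in HFD+Pc against control. These 3 calls are 60% of the 5 tested, against 23.1% of all tested genes. Another of the 5 had a positive difference of 0.43 and was not called. Adipocyte markers summed to 4.32 to 6.13, 12.6 to 37.1 and 4.95 to 10.98 FPKM, with Retn, Plin1 and Lep under 1 FPKM throughout. Only 3 of the 7 were tested, with 2 positive differences and 1 negative in HFD against control. The 1 called there averaged 0.0812 FPKM in control and 12.3 ± 8.55 in HFD. Cholangiocyte and T cell markers reached at most 39.8 and 11.04 FPKM in sum, with Krt7, Cldn4, Cftr and 7 of 11 T and NK cell markers, Cd3e among them, under 1 FPKM throughout.

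Hepatocyte markers summed to 69301 to 70119.7 FPKM in control, 49585 to 55199 in HFD and 57249 to 71202 in HFD+Pc. Alb alone averaged 33811 FPKM, so it weighs heavily in these sums. In HFD against control 2 of the 18 differences were positive and 16 negative, with 1 called lower (5.56% against 9.97% of all tested genes). In HFD+Pc against control 2 were called higher and 4 lower, 33.3% against 23.1%. Immediate early genes, which respond within minutes to handling and stress, summed to 73.6 to 154, 54.97 to 62.04 and 59.9 to 67.6 FPKM, and 5 of 8 tested were lower and Egr1 higher in HFD+Pc against control. These calls are 75.0% of those tested, against 23.1% of all tested genes. The part of these marker differences in those of the ribosomal protein genes was not tested.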

How the data were processed

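RNA was isolated from liver with Trizol before Illumina library preparation, per the labels' protocols. The submitters' processing notes name HISAT2 2.0.5 and the build GRCm39. Gene values are FPKM made by the authors, as the column headers of the deposited table state. The counting tool, the annotation and the treatment of reads with several matches are not given in the sources used here. Members and gene lists were chosen with earlier results of these data known. Of 53700 Ensembl identifiers, 52093 were matched to symbols, and 307 rows without one stayed unnamed. All p-values come from limma 3.58.1 (R 4.3.3) run on log2(FPKM + 1), or from limma-voom where named, with 1 mean per group and no covariate. The eBayes step was trended and robust for limma, and robust without a trend for limma-voom. The log2(FPKM + 1) scale understates changes of low genes.

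FPKM values of a gene were whole multiples of 1 read within a tolerance of 0.02, which gave reads for 26123 of 26278 genes above 0 (99.4%) and for 83 of 85 members. The divisor behind the FPKM was 97.7% to 109% of the recovered totals, and highest in the HFD libraries. It was 108.7%, 103.7% and 101.8% in HFD replicates 1, 2 and 3, 97.7% to 100.6% in control and 98.1% to 101.0% in HFD+Pc. A larger divisor gives a lower FPKM for the same reads, and limma-voom used the recovered totals instead. Near-identical copies were found with BLAST 2.17.0+ on GENCODE M21, an earlier build used for coding sequences, lengths and GC content only. Members named with values are all those called, the 3 extremes of each comparison and of level, paralogs, stalk proteins, Rpsa and the 3 most variable. Of the other lists, up to 2 called genes per direction are named. Rpl5, Rpl22, Rpl26, Rps6, Rps27, Larp1, Hbb-bs and markers that stayed low were named after their values were seen. Alternatives were other scalings, pseudocounts, filters and test settings, limma-voom on recovered reads, 2-group fits, the replicate number as a block, and leaving out each library. The sum with copies was added after seeing the data. Some genes are not reported here by name. The test was tested on simulated data with known changes.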

Additional observations from a re-analysis of the deposited data

How the results depend on the processing

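No called ribosomal protein gene changed direction under the alternatives run. The 6 falls in HFD against control became 1 on the TPM scale, where all libraries have the same sum, 2 with a minimum of 0.1 FPKM, 0 with no filter, 1 with only the 2 groups fitted, and 0 to 7 with a library left out. In HFD+Pc against HFD, the 1 rise became 2 with reads summed with copies, 3 with length and GC trends removed, 2 with limma-voom, 0 with a minimum of 0.1 FPKM, 0 with no filter, 0 with only 2 groups and 0 to 0 with a library left out. The 3 falls there became 6 with reads summed with copies, 1 without trend and robust estimation, 1 with a minimum of 0.1 FPKM, 0 with no filter, 1 with only 2 groups and 0 to 3 with a library left out. In HFD+Pc against control the 3 rises became 7 with length and GC trends removed and 2 to 5 with a library left out, and the 27 falls became 16 with no filter and 15 to 27 with a library left out. Filters change how many genes share the p-value adjustment, and other causes were not tested. Medians over the members and their summed levels moved by less than the spread between replicates under each alternative, but the sign of the median in HFD+Pc against HFD varied, from -0.07 to 0.10. Over all tested genes, HFD against control had 507 higher and 588 lower by limma, 1039 and 443 by limma-voom, and 596 and 419 on the TPM scale, while HFD+Pc against HFD had 20 and 49, against 58 and 77 with length and GC trends removed 35 and 148 by limma-voom and 17 and 86 on the TPM scale. In HFD+Pc against control rises outnumbered falls with quantile normalization, 1338 and 1266, and by limma-voom, 1381 and 1344, against 1225 and 1313 by limma. With no filter the counts became 102 and 107 in HFD against control, 2 and 1 in HFD+Pc against HFD and 636 and 747 in HFD+Pc against control. With a minimum of 0.1 FPKM they were 333 and 392, 9 and 18, and 1035 and 1211 in the same order. With only 2 groups fitted they were 298 and 361, 6 and 16, and 1166 and 1289. Whether replicate numbers mark shared litters or batches is not stated. Deviations of same-numbered libraries correlated at -0.12 to 0.05 and those of differently numbered ones at -0.11 to 0.14. So few libraries cannot decide whether the numbers pair them. With the replicate number as a block, HFD against control had 0 falls, HFD+Pc against HFD 0 rises and 0 falls, and HFD+Pc against control 0 rises and 13 falls. Over all tested genes the block fit called 100 higher and 132 lower, 1 and 2, and 450 and 608 in the same order. With 3 libraries per group, the median SE of a member's difference was 0.12 on the log2 scale, which sets the size of difference that can be seen.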
